A study of Mus musculus with 4 samples.

Results

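Strong H3K79me2 domains of thymocytes grown with an SCD1 inhibitor contain many weak peaks of the control culture, and these weak control peaks are described here. The members were selected on the authors' q values and on position. A control peak counted as weak where q was above 0.05, and an inhibitor peak counted as a strong domain where q was 0.05 or less. A weak control peak that shared at least 1 bp with a strong inhibitor domain was a member. Of 124158 weak control peaks, 14976 were members, which is 12.1% (95% Wilson interval 11.9 to 12.2). The control list held 124962 peaks in all and the inhibitor list 35018, of which 6528 were strong domains. The lowest −log10 p in the control list was 1.003, a p near 0.1. Of the 14976 members, 10773 had a p of 0.05 or less. The overlap and both q values chose the members, so their number and their low q are a description and were not tested.

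The cells were mouse double-negative thymocytes at the DN3 stage, derived from C57BL/6 haematopoietic stem cells on OP9-DL1 stroma with the cytokines Flt-3L and IL-7. DMSO was the vehicle in the control culture, and the other culture received A939572, which inhibits the stearoyl-CoA desaturase SCD1. Each condition had 1 ChIP library, precipitated with an H3K79me2 antibody, and the 2 inputs are not analysed here. With 1 library on each side, the treatment and the library cannot be told apart, no p-value is given anywhere, and intervals cover counting error over peaks, domains or genes only.

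Dimethylation of lysine 79 of histone H3 is laid down by DOT1L, a methyltransferase that travels with elongating RNA polymerase II. The mark typically begins downstream of the start of a transcribed gene and fades towards its end, so it forms broad blocks rather than points. Long genes with active transcription carry the widest blocks. DN3 is the stage at which T lineage commitment is complete and the T cell receptor beta locus rearranges. SCD1 turns saturated into monounsaturated fatty acids.

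Where the gene starts lay relative to the members is shown first with 7 promoters, chosen after their values had been seen. In each line the 250 bases before the RefSeq start are given 5′ to 3′ on the strand of the gene (GRCm38.p6, which mm10 names), with every CG dinucleotide in capitals. The first 4 starts lay under a member and the last 3 lay inside a strong domain with no control peak over them.
Rag1: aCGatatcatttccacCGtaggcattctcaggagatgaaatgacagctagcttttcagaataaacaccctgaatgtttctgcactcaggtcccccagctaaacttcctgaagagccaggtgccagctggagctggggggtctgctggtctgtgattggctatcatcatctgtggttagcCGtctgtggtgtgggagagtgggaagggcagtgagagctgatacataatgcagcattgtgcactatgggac
Dntt: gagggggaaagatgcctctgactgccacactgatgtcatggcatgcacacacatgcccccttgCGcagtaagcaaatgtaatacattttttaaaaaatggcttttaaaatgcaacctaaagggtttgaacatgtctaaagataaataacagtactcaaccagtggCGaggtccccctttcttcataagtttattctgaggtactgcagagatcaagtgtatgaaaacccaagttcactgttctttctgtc
Kit: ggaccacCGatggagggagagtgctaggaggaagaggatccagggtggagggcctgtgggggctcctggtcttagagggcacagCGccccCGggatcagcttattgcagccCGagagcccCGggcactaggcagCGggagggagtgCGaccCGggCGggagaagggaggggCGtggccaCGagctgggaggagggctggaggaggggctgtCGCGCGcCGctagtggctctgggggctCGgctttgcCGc
Acsl3: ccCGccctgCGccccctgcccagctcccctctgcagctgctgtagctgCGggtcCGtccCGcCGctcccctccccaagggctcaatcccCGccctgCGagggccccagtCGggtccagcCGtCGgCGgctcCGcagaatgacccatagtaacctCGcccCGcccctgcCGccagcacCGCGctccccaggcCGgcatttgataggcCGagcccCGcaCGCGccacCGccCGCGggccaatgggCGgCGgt
Dot1l: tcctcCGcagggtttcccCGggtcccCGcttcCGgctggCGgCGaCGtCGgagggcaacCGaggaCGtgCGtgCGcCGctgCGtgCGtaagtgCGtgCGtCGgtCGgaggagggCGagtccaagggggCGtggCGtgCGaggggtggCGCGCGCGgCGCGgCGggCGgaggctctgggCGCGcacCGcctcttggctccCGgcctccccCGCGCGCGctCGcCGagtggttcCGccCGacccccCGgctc
Elovl6: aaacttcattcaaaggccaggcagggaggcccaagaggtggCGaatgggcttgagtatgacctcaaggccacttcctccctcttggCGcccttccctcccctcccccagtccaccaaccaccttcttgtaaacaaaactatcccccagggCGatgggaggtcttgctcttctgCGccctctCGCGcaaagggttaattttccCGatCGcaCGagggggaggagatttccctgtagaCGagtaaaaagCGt
Srebf2: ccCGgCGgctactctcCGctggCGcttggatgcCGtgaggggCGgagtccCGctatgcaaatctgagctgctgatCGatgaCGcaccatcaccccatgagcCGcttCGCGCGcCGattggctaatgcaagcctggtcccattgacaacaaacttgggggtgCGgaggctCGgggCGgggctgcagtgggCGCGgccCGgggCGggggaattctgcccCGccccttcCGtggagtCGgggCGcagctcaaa

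Rag1, which encodes part of the recombinase of antigen receptor genes, has this stretch at chr2:101649533-101649782 on the minus strand, and a member of 9771 bp with a fold enrichment of 1.61 lay over its start. Dntt, which encodes the polymerase TdT that adds bases at V(D)J joins, has it at chr19:41029025-41029274 on the plus strand, under a member of 5953 bp with a fold of 1.86. Kit, the receptor of stem cell factor, has it at chr5:75574737-75574986 (plus), under a member of 34942 bp with a fold of 2.29. Acsl3, an acyl-CoA synthetase, has it at chr1:78657575-78657824 (plus), under a member of 7402 bp with a fold of 1.84. These 4 starts span from 2 CG dinucleotides at Dntt and 3 at Rag1 to 17 at Kit and 28 at Acsl3.

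At the other 3 genes the first control peak lay downstream. Dot1l, the H3K79 methyltransferase gene itself, has its stretch at chr10:80754953-80755202 (plus) with 44 CG dinucleotides, and its first member began 733 bp after the start. The RefSeq start used for Dot1l lies 102 bp inside the annotated gene body, so the end of its stretch overlaps the gene. Elovl6, a fatty acid elongase, has it at chr3:129532136-129532385 (plus) with 11, and the first member began 11167 bp downstream. Srebf2, which encodes the sterol regulator SREBP2, has it at chr15:82147019-82147268 (plus) with 25, and the first member began 855 bp downstream.

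Most promoter windows inside domains touched no control peak. Windows from 250 bases before to 50 after a RefSeq start were taken for 17469 coding genes, 21237 windows in all. Of those wholly inside a strong domain, 586 lay wholly under a member, 331 wholly under a strong control peak, 124 partly under a control peak and 4217 under none. The 586 windows had a median of 15 CG dinucleotides and 57.6% G or C in the 250 upstream bases, the 331 had 19 and 61.2%, and the 4217 had 18 and 61.2%. Over all windows the medians were 10 and 55.6%. The motif CCGGAA, searched on both strands, was present in 27.99% of the windows under a member, 23.6% under a strong control peak, 27.9% of the windows in domains under no control peak and 14.99% of all windows. Windows under members and domain windows without a control peak thus carried it at like shares.

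Members were spread over most domains. Of 6528 strong inhibitor domains, 4988 held at least 1, which is 76.4% (75.4 to 77.4). The share of equally wide stretches outside domains that hold a weak control peak was not counted. Weak control peaks were frequent there too, with 57.8 midpoints per Mb in flanks as wide as the domain and free of inhibitor peaks. Exactly 1 member was found in 1958 domains and exactly 2 in 1095, 898 domains held 5 or more and 209 held 10 or more. The 898 domains with 5 or more contained 7324 members, 48.9% of all. Weak control peaks alone were present in 4437 domains, weak and strong ones together in 551, strong ones alone in 222 and no control peak in 1318. Domains with no control peak were narrow, with a median width of 4630 bp, against 16831 bp for those with weak peaks alone and 39533 bp for those with both.

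The number of members followed the width of the domain, whereas their density changed little. Among domains under 5 kb, 38.1% held a member, among those of 20 to 40 kb 94.4%, and all 292 domains of 80 kb or more held at least 1. At an even density a wider stretch holds a peak more often, and equally wide stretches outside the domains were not counted. The median number rose from 0 in domains under 5 kb to 3 at 20 to 40 kb, 5 at 40 to 80 kb and 11 at 80 kb or more. Per Mb of domain the members numbered 124 in domains under 5 kb and 95.4 in those of 80 kb or more. Any overlap counts, and this favours narrow domains in the density.

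**Figure D1:**
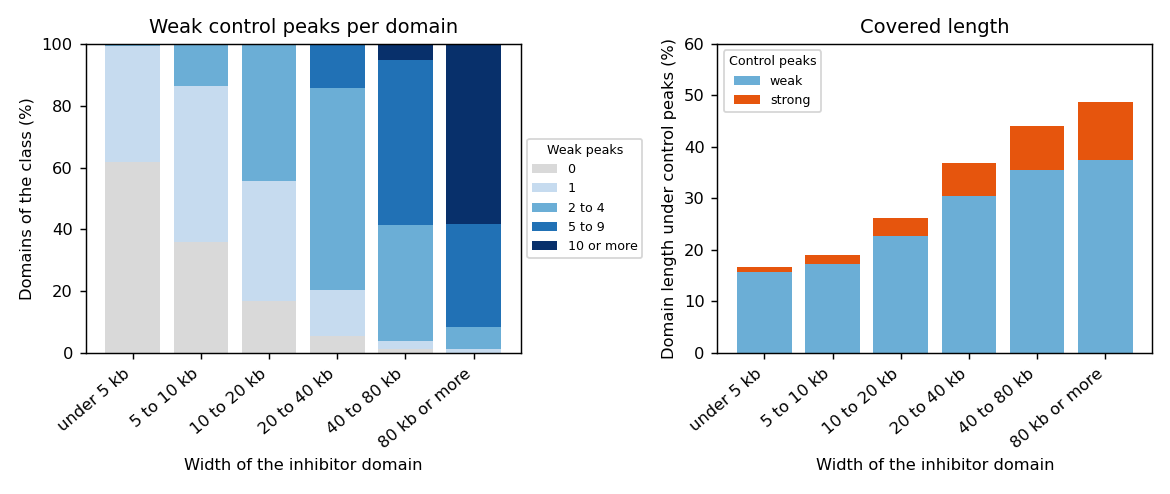
Left, share of strong inhibitor domains (%) in each width class that hold 0, 1, 2 to 4, 5 to 9 or 10 or more weak control peaks. Right, share of the summed domain length (%) under weak (blue) and strong (orange) control peaks by the same width classes; the weak share rises from 15.7% to 37.6%.

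Members covered 31.1% of the summed domain length, and strong control peaks covered a further 7.18%. Per domain the median covered share was 19.1%, with quartiles of 3.28% and 37.8%. At least 50% was covered in 885 domains, at least 80% in 88 and at least 90% in 30. The covered share was 15.7% in domains under 5 kb, 30.4% at 20 to 40 kb and 37.6% at 80 kb or more. The covered share thus rose with domain width while the density of members did not.

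Domains with a higher fold enrichment in the inhibitor list were covered more. Over 5 equal groups of domains from the lowest to the highest fold, the covered share was 20.1%, 23.5%, 28.5%, 33.4% and 37.2%. Within domains of 20 to 40 kb, where width differs little, it was 24.5%, 27.1%, 30.7%, 36.3% and 33.1%. Members per Mb went the other way in that width class, from 113 in the lowest group to 67.7 in the highest, where strong control peaks took 22.3% of the length. Over the autosomes the covered share lay between 25.7% on chromosome 8 and 36.5% on chromosome 13.

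Outside the domains weak control peaks were sparser. A weaker mark in all cells and a mark in fewer cells cannot be told apart in bulk chromatin. In the domains 95.1 member midpoints fell per Mb, against 57.8 weak control peak midpoints per Mb in flanks as wide as the domain and free of inhibitor peaks, a ratio of 1.64. The covered shares differed more, 31.1% inside and 9.84% in the flanks. Gene bodies took more of the domains than of their surroundings, so the count was repeated on bases inside coding genes only. There the density was 98.1 per Mb in domains and 49.6 in flanks, a ratio of 1.98, and the covered shares were 32.6% and 8.28%.

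Along the chromosome, with the strand of the gene left aside, members lay in all parts of the domains. With each domain cut into 3 equal parts, 33.4% of 14580 midpoints fell in the left part, 35.2% (34.4 to 36.0) in the middle part and 31.4% in the right part. In domains with a single member the middle part held 40.6% (38.4 to 42.9). A member that lies inside a domain and fills most of it has its midpoint in the middle part by geometry. Part of these middle shares can therefore follow from member width. Of 14981 pairs of a member and a domain, 93.1% had the member wholly inside, and 5 members touched 2 domains. Where a domain held 2 or more, the first to the last spanned a median of 76.9% of it.

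The edge itself was resolved in the 1025 domains of 40 kb or more. Weak control peaks covered 8.21% of the last 2 kb outside the domain, 15.4% of the first 2 kb inside, 27.6% of the next 2 kb and 38.1% at 18 to 20 kb from the edge. Coding gene bodies took 53.8% of the bases in the first of these bins and 69.6%, 84.4% and 96.2% in the others. Farther out, at 8 to 10 kb outside, the weak control share was 14.03%, higher than just outside the edge.

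Oriented by the gene, member coverage was low up to 0.5 kb after the start and rose beyond it. This could be drawn in 2990 domains that hold the start of the coding gene with most overlap and whose strand is known. From 4 kb to 0.5 kb before the start members covered between 10.8% and 13.03% of the domain bases, in the last 0.5 kb before it 9.26%, and in the first 0.5 kb of the gene 12.2%. The share was 29.1% from 0.5 to 1 kb and reached 44.2% from 1 to 2 kb. It was 36.0% from 2 to 4 kb and stayed between 31.1% and 33.3% from 4 to 128 kb. The bins rest on unlike sets of domains, since 2654 reached 4 to 8 kb but only 226 reached 64 to 128 kb. Strong control peaks followed another course, with 7.95% in the first 0.5 kb, 14.2% from 1 to 2 kb and a decline to 5.88% at 64 to 128 kb. Over the domains that reached each bin, weak peaks thus made up a larger part of the covered control length far from the start than near it. With the same domains cut into 10 equal parts from 5′ to 3′, members covered 24.6% of the first, 41.0% of the third, 20.2% of the last but one and 14.6% of the last. Coverage thus fell along these domains after the third part, which the count without strand does not show.

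**Figure D2:**
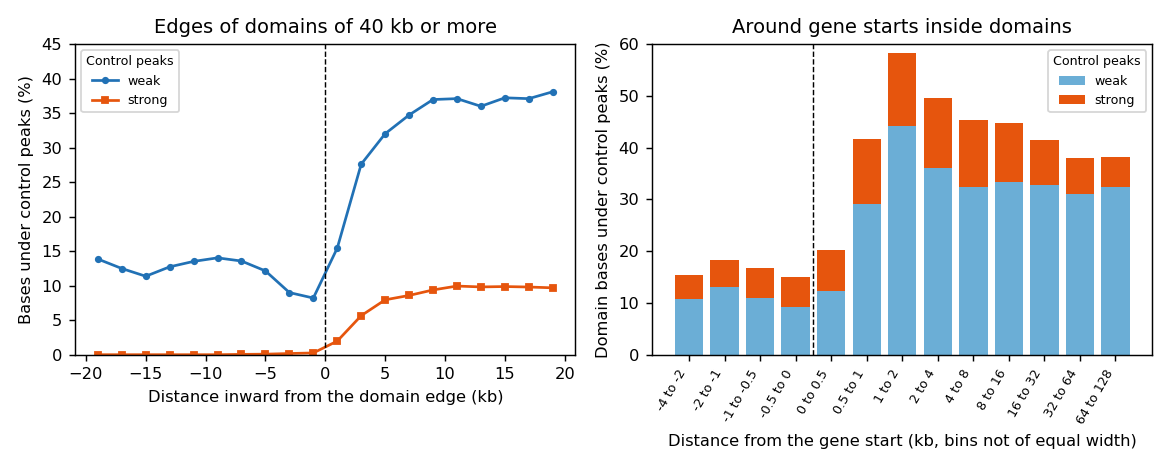
Left, share of bases (%) under weak and strong control peaks in 2 kb steps from 20 kb outside to 20 kb inside the edge of the 1025 domains of 40 kb or more. Right, share of domain bases (%) under weak (blue) and strong (orange) control peaks by distance from the gene start in 2990 domains, of which 226 reach the last bin. The weak share is 9.26% just before the start and 44.2% from 1 to 2 kb after it.

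Members were wider than other weak control peaks but not stronger by fold. Their median width was 1808 bp (quartiles 950 and 3670 bp, widest 108700 bp), against 1611 bp for the 10849 weak control peaks in weak inhibitor peaks only and 1186 bp for the 98333 with no inhibitor peak. Median fold enrichments were 1.66, 1.65 and 1.66. A −log10 q of 0 was listed for 51.0% of the members, 67.5% of the second class and 78.3% of the third. Members had 94.4% of their length in coding gene bodies, the second class 79.2% and the third 33.1%. The strong inhibitor domains themselves had 91.0% of their length in gene bodies.

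The share of members rose with peak width. Among weak control peaks under 0.5 kb, 6.96% (6.58 to 7.37) were members. The share was 14.7% (14.2 to 15.1) at 2 to 4 kb, 57.6% (55.2 to 60.1) at 8 to 16 kb and 93.8% (90.8 to 95.8) at 16 kb or more. Wide peaks have more chance to touch a domain, so the midpoint was used as well, and 6.89% of the narrowest and 93.2% of the widest class had it inside a strong domain. At the threshold, the 3 members closest to it had a −log10 q of 1.2981, 1.2985 and 1.3006 with folds of 2.19, 2.13 and 2.22. The 3 strong control peaks just beyond it had 1.3013, 1.3022 and 1.3038 with folds of 2.22, 2.23 and 2.03, so peaks on both sides of the line had like folds.

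**Figure D3:**
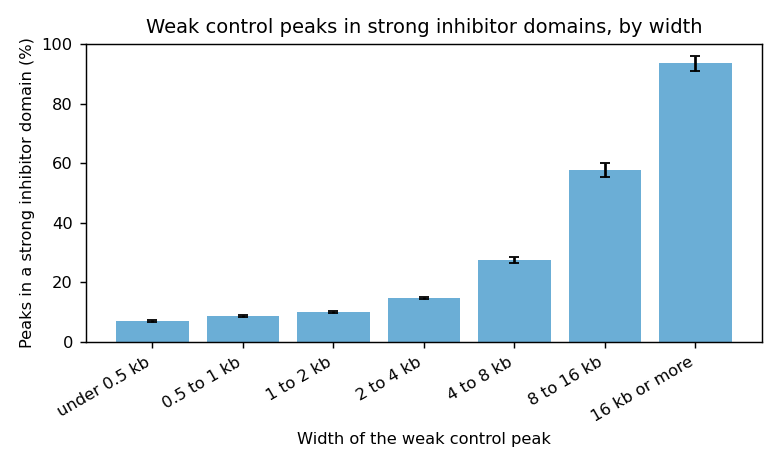
Share of weak control peaks (%) that overlap a strong inhibitor domain, by width of the control peak; error bars are 95% Wilson intervals. The share rises from 6.96% under 0.5 kb to 93.8% at 16 kb or more.

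Of 21883 coding genes, 7591 (34.7%) had a strong inhibitor domain on their body and 5150 (23.5%) held a member inside one. The 5150 were 67.8% (66.8 to 68.9) of the genes with a domain. A strong control peak lay on 858 genes (3.92%), and 1527 genes with a domain had no control peak at all. Long genes held members most often, from 37.7% of domain genes under 5 kb to 90.2% of those of 80 kb or more. The median covered share of the domain part of a gene was 16.8% over all domain genes and 33.5% in the longest class. In 457 genes, members covered at least 50% of the whole body. A member in a region shared by overlapping genes, of which there are 3839, was counted for each.

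T lineage regulators differed widely in how much of their domain strong control peaks and members took. Bcl11b, a zinc finger factor needed for T cell commitment, had a domain of 99.04 kb with a strong control peak over 89.5% of it and 1 member of 1179 bp. At Gata3, a lineage-specifying factor, a strong control peak covered 85.7% of the 25.4 kb domain and no member was found. Ikzf1, which encodes IKAROS, had 5 members over 7.98% of 99.9 kb beside a strong peak over 63.9%. Members were also few where strong peaks took less of the domain. Tcf7, which encodes TCF1, had 4 members over 5.07% of a domain of 118 kb that also holds another gene. Its 2 strong peaks took 31.02% of that domain. On the Tcf7 body alone strong peaks took 67.6%, and 1 member overlapped it. The Notch1 domain, 146 kb wide and shared with another gene, had 5 members over 6.37% and a strong peak over 13.97%. None of the 5 lay on Notch1, and the strong peak took 42.6% of the Notch1 body.

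Other regulators had more members. Runx1, a core lymphoid transcription factor, had a strong control peak of 63.9 kb, 28.8% of its 222 kb domain (chr16:92607142-92828876), near the 5′ end. Of its 14 members 13 lay downstream of that peak, the widest of 29.0 kb, and together the 14 covered 24.7%. Satb1, a chromatin organiser of thymocytes, had 11 members over 22.4% of 115 kb beside a strong peak over 40.9%. Ets1 had 4 members over 15.5% of 67.3 kb, all on one side of its strong peak, which took 54.1%. Tcf12, which encodes the E protein HEB, had 2 domains, one of 142 kb filled to 83.2% by a strong control peak with 1 member over 14.7%, and one of 119 kb with 21 members over 45.02% and no strong peak. Tox, a regulator of T cell development, had 17 members over 73.6% of 234 kb and no strong control peak.

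The recombinase genes had weak control peaks alone. Rag1 and Rag2 share a domain of 38.1 kb (chr2:101612561-101650664) with Iftap, the coding gene with most overlap in it. Members took 83.8% of the Rag1 body and 57.4% of the Rag2 body, which overlaps another coding gene. The domain held 5 members over 43.3% of its length. These members were 1431, 2197, 2287, 831 and 9771 bp wide, with folds of 1.53, 1.49, 1.66, 2.08 and 1.61. The widest lay at the end of the domain that holds the Rag1 start, and the narrowest had the highest fold. Lck, a kinase of T cell receptor signalling, had 1 member over 7.16% of its 30.8 kb domain and a strong peak over 11.4%. Ptcra, the invariant partner of the rearranged beta chain, and Cd3e had no strong inhibitor domain and so no member.

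**Figure D4:**
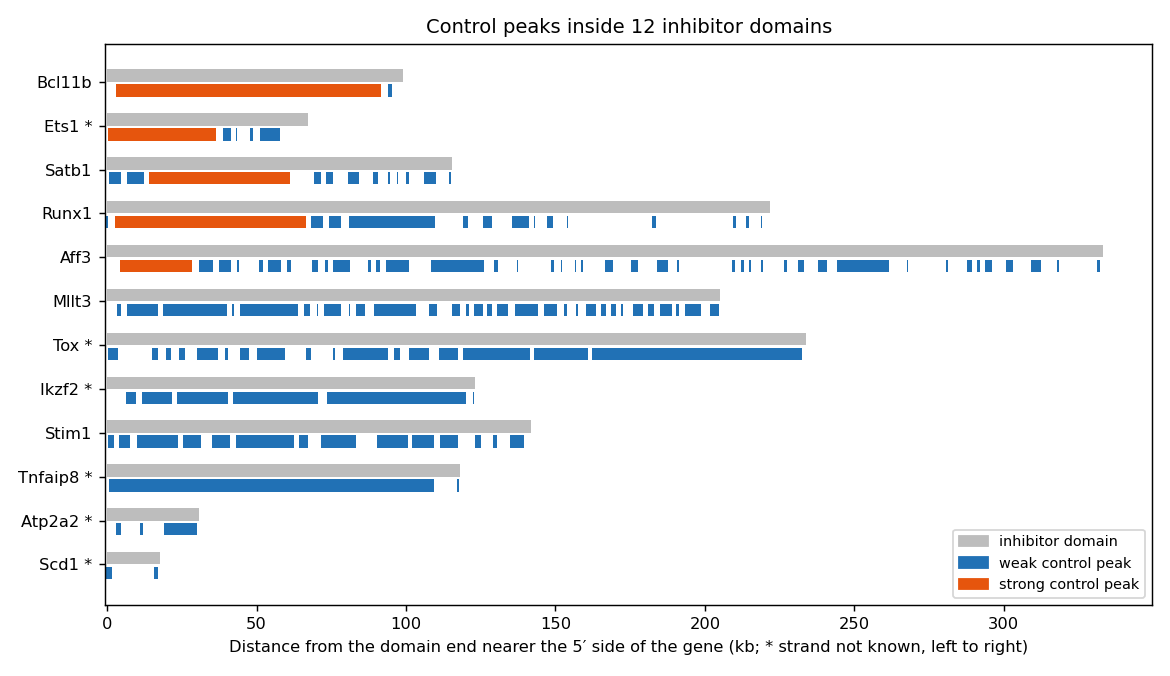
Strong inhibitor domains (grey) of 12 named genes with the weak (blue) and strong (orange) control peaks inside them, as distance in kb from the domain end nearer the 5′ side of the gene, or from the left end where the strand is not known (asterisk). At Runx1 and Aff3 a strong control peak lies near the 5′ end of the domain (at Aff3 before the annotated gene start) with weak peaks after it, whereas Mllt3, Tox, Ikzf2, Stim1 and Tnfaip8 have weak peaks only.

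The domains with the most members were wide. Aff3, of the AF4 family of elongation factors, had 40 over 31.98% of 333 kb, and one strong control peak over 7.22% that lies before the annotated start, off the gene body. Foxn3, a forkhead factor, had 32 over 25.3% of 303 kb. Mllt3, which encodes the elongation complex subunit AF9, had 31 over 64.7% of 205 kb. Foxp1, a forkhead factor of lymphocytes, had 30 over 26.8% of 241 kb and 18 over 25.7% of a neighbouring domain of 149.7 kb. Xylt1, Angpt1, Ripor2 and Hdac4 had 27 or 28 each. Apart from Aff3, none of these 9 domains held a strong control peak. Like counts went with unlike coverage, since Mllt3 and Foxp1 differed by 1 member but by 64.7% against 26.8% covered.

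Other domains were filled by few wide members. At Tnfaip8, a single member of 108700 bp was the widest of all, and 2 members covered 92.7% of the 118 kb domain. Pitpnc1, a phosphatidylinositol transfer protein gene, had 8 over 78.2% of 171 kb. Ikzf2, which encodes HELIOS, had 6 members over 86.3% of 123 kb (chr1:69567020-69690188), of 3639, 10055, 17286, 28475, 46441 and 384 bp. The folds of those 6 were 1.92, 1.599, 2.03, 1.88, 2.12 and 1.43, so the widest had the highest fold and the narrowest the lowest. Among domains of 10 kb or more, Lmo4 had the highest covered share, 98.8% of 15.5 kb under 1 member, followed by Epc2 with 97.8% of 23.5 kb and Rora with 95.1% of 68.4 kb. At the opposite end, Pitpna had the widest domain on a coding gene with no control peak (40.7 kb).

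**Figure D5:**
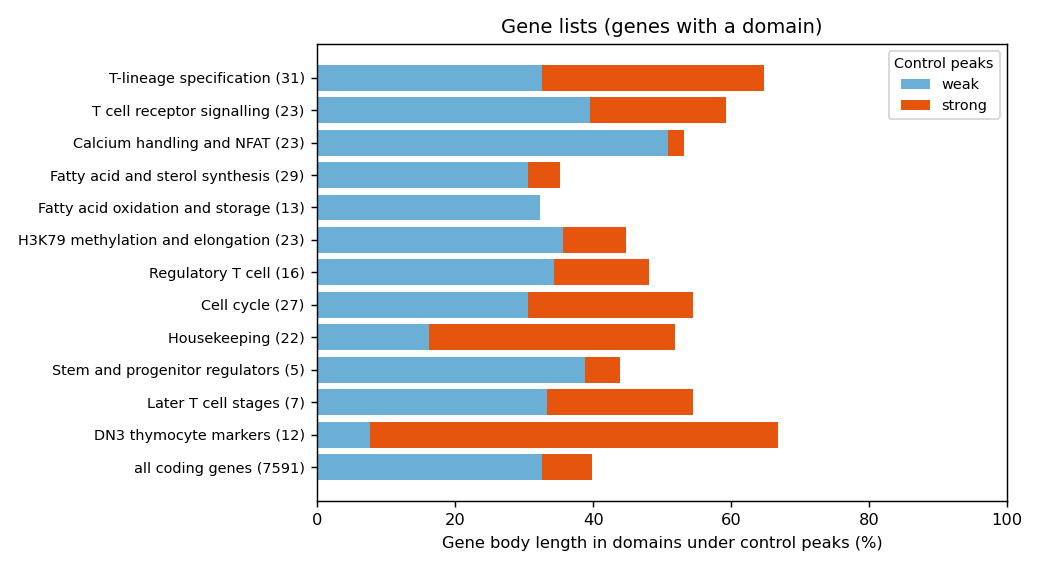
Share of the gene body length inside strong inhibitor domains (%) that lies under weak (blue) and strong (orange) control peaks, for the gene lists with at least 5 domain genes (number in brackets) and for all coding genes. Calcium handling and NFAT has 50.9% under weak peaks, and DN3 thymocyte markers have 59.3% under strong peaks.

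Calcium handling and NFAT genes had the largest share under weak control peaks of the lists with at least 5 domain genes. Of 31 genes 23 had a domain and 21 of those held a member. Members covered 50.9% of the gene length in domains and strong control peaks 2.32%, against 32.5% and 7.27% over all coding genes. These genes were long, with a median of 71720 bp against 22513 bp over the domain genes at large, and coverage rose with gene length. Camk2d, a calcium and calmodulin dependent kinase, had 16 members over 71.5% of its 171 kb domain. Stim1, the calcium sensor of the endoplasmic reticulum, had 14 over 69.1% of 142 kb (chr7:102267832-102409734), from 1578 to 19624 bp wide and with folds from 1.604 to 2.004. Ppp3ca, the catalytic subunit of calcineurin, had 21 over 60.8% of 130.2 kb. None of these 3 domains had a strong control peak. Atp2a2, which encodes the calcium pump SERCA2, had 3 members of 1649, 1269 and 11190 bp over 46.03% of 30.6 kb, with folds of 1.52, 1.46 and 1.71.

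T cell receptor signalling genes had 39.5% of their domain length under members and 19.8% under strong control peaks, with members on 19 of 23 domain genes. That is 82.6% (62.9 to 93.02), an interval that includes the 67.8% of all domain genes. These genes were also long, with a median of 50137 bp against 22513 bp over the domain genes at large. Fyn, a kinase beside Lck, had 19 over 37.5% of 143 kb, and Cblb, a ubiquitin ligase that restrains the receptor, had 13 over 49.3% of 116 kb. T lineage specification genes had 32.6% under members and 32.2% under strong peaks, with members on 22 of 31 (71.0%, 53.4 to 83.9). Their weak share was that of all coding genes, and their strong share was above it.

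Genes of lipid metabolism lay close to the background in their weak share. Fatty acid and sterol synthesis genes had members on 20 of 29 domain genes, with 30.5% of the domain length under members and 4.62% under strong peaks. Elovl5, a fatty acid elongase, had 3 members over 62.8% of 75.4 kb, of which one spanned 43690 bp with a −log10 q of 0.99992. Srebf2 had 2 over 38.2% of 57.5 kb. Scd1, the drug target, had 2 members of 1985 and 1086 bp over 15.1% of its 17.5 kb domain, one at each end. Scd2, its neighbour and relative, had 2 over 3.21% of 38.4 kb, none on the gene body, and a strong control peak over 28.3%. Fatty acid oxidation and storage genes had members on 10 of 13 domain genes, with 32.3% under members and no strong control peak.

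H3K79 methylation and elongation genes had members on 19 of 23 domain genes, with 35.6% of the domain length under members and 9.11% under strong peaks. Their share of genes with a member was 82.6% (62.9 to 93.02), an interval that includes the 67.8% of all domain genes, and the length shares compare with 32.5% and 7.27% over all coding genes. Dot1l had 2 members of 5491 and 874 bp over 24.8% of 25.6 kb, and Aff1 had 14 over 38.9% of 158 kb. Cell cycle genes had 30.5% under members and 24.01% under strong peaks, with Cdk6, a kinase of G1 phase, at 32.1% and 59.3% of a domain of 209 kb. Regulatory T cell genes had 34.4% and 13.8%. Housekeeping genes were short, with a median of 4739 bp, and had members on 7 of 22, with 16.2% under members and 35.6% under strong peaks.

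The cell type label was set against marker genes. Of 15 DN3 markers 12 had a strong domain, of which 8 also had a strong control peak and 7 held a member, with 7.57% of the domain length under members and 59.3% under strong peaks. Cd3e, Ptcra and Notch3 had no strong domain. Over all coding genes 34.7% had a strong domain. Markers of other cells had one in 2 of 10 for the OP9 stroma, 1 of 9 for B cells (Blk), 2 of 9 for myeloid cells, 2 of 8 for natural killer and innate lymphoid cells and 1 of 8 for erythroid and megakaryocytic cells (Tfrc). Their members numbered 1, 3, 0, 14 and 1, and 13 of the 14 were on Zbtb16. Stem and progenitor regulators had a domain in 5 of 23 genes with 21 members, and genes of later T cell stages in 7 of 20 with 7 members. A part of other cells in the members was not tested.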

How the data were processed

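H3K79me2 ChIP-seq of 2 libraries, 1 per condition, was available as the authors' broad peak lists. The submitters' processing notes name BWA, MACS2 2.1.0 and mm10 but give them no role, and how the caller was set or used the input is not given in the sources used here. A deposited peak carries a fold enrichment (the authors' ratio to background), the authors' −log10 p and −log10 q, and a deposited score, which is 10 times −log10 q cut to a whole number. All are means over the peak and were compared only inside a list. Depth is unknown, since the lists hold no read counts.

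Overlaps, covered bases and positions were computed with pandas 2.3.3 and numpy 2.4.6 under Python 3.11.15 and tested on simulated lists. Gene bodies came from RefSeq on GRCm38.p6 (21883 coding genes), and strands and promoters from its promoter table, which matched 17491 of them. Shares of counted items have 95% Wilson intervals. Flanks were as wide as the domain, on each side.

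The members, the 17 gene lists, the comparisons and most alternatives were chosen with earlier results of these data known. Named genes are 17 fixed ones, the leading genes of the 8 domains with most members, most covered bases and highest covered share (at least 10 kb), the 6 widest domains without a control peak, the 6 widest members, and the 3 genes per list with most member bases. Others named in the text were chosen after their values were seen.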

Additional observations from a re-analysis of the deposited data

How the results depend on the processing

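The 9 results on the members were recomputed under 14 alternatives, most of them chosen with earlier results of these data known. Of these alternatives 3 were not in the plan. No result reversed. Counts, medians and shares have no sign to reverse, so this concerns only the density ratio of domains over flanks. Its lowest value was 1.43. Of 87 values, 51 stayed within the interval of the main value or, for counts, within 1.5 times. For shares of length, that interval was computed as if the share were one of domains or of members. It is a tolerance there and does not measure counting error. Some of these 51 could not move, so their number does not measure robustness. Merging weak control peaks within 1 kb changed nothing, since no gap was that small. The density ratio counts midpoints, so it stayed at 1.64 under the stricter overlap rule and the midpoint rule. Domains at −log10 q of at least 5 held 7306 members on 2566 genes, and those at fold 3 or more 7897 on 2574. The share of domains with a member was then 87.3% and 88.2%, the median per domain 2 in both, the covered share 34.9% and 35.6%, the density ratio 1.43 and 1.47, and the median width 2034 and 2059 bp. The middle part held 36.2% of midpoints in the former, and genes took 95.3% of the member length in the latter. Of the 91 domains on named genes or picked by the rule for names, 34 are absent under both, among them those of Rag1, Atp2a2, Scd1, Stim1, Camk2d, Ppp3ca, Lmo4, Rora, Foxn3, Foxp1 (both), Xylt1, Angpt1, Fyn, Elovl6 and Pitpna.

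Weak control peaks at p of 0.05 or less left 10773 members. They gave 66.7% of domains with a member, 26.9% covered, a ratio of 1.94, 95.01% of length in genes and a median width of 2288 bp. Weak control peaks of 1 kb or more gave 65.6%, 29.4%, a ratio of 1.96, 36.3% in the middle part and 2562 bp. Requiring 50% of the control peak, or its midpoint, inside gave 75.05% and 75.1% of domains, with 95.3% in genes in both. Without genes that overlap another, 77.8% of the member length was in genes. The ratio was 1.83 with flanks of 20 kb and 1.98 in coding gene bodies. Without domains that hold a strong control peak, 34.8% was covered, the ratio was 1.88 and 95.6% of the length was in genes.

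No paired analysis was possible because each condition has 1 library and the results come from no test. With 1 library of unknown depth on each side, the treatment cannot be told apart from library, depth or precipitation efficiency.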

Other observations

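Beside protein-coding genes, members lay on T cell receptor loci, long non-coding RNA genes and microRNA hairpins. The Tcrb locus held 24 members with 81.3 kb in strong domains, Tcrg 6 with 27.9 kb and Tcra 7 with 13.4 kb. Among long non-coding RNA genes, 2610307P16Rik on chromosome 13 held 28 members with 137 kb and Lncpint 11 with 30.96 kb. At Dleu2 a single member took 29.1 kb.

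Members overlapped 33 of 210 microRNA hairpins that lie in strong domains, 15.7% (11.4 to 21.2). Members cover 31.1% of the domain length, but that is a share of bases and not of hairpins. Neighbouring hairpins can lie under 1 member, so the interval counts as separate what is not. Most of the 33 hairpins lie in the domain of a coding gene. Mir23a, Mir27a and Mir24-2 lay together under 1 member of 1457 bp with a fold of 1.42 (chr8:84208490-84209946), in a domain of 10.5 kb. The same member also held Mir3074-2, which overlaps Mir24-2 on the minus strand. Mir342 lay under a member of 989 bp in the domain of Evl (chr12:108658032-108659020), and Mir191 and Mir425 under a member of 1229 bp (chr9:108567978-108569206). The mature RefSeq sequences are given 5′ to 3′ with the seed, bases 2 to 8, in capitals, chosen after the values were seen.
miR-23a-3p: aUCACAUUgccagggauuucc
miR-27a-3p: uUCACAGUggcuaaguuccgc
miR-24-3p: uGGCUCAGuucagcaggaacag
miR-342-3p: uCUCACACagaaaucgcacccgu
miR-191-5p: cAACGGAAucccaaaagcagcug
miR-425-5p: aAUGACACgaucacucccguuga
All 6 seeds differ. The hairpins of these 6 lie on the plus strand, and each member is far wider than the hairpins under it.

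The widest domain without any control peak lay on chromosome 17, spanned 44.9 kb and touched no coding gene. On chromosome X members covered 23.2% of the domain length, and 129 of 170 domains held one (75.9%, 68.9 to 81.7).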
